A study of Arabidopsis thaliana with 128 samples.

Results

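Inflorescence tissue was compared with seedling tissue in wild-type plants that had never been stressed. The comparison holds 7 libraries, beside 121 others in the series, namely all those of inflorescence apices at day 28 (wt CI28, 3 libraries, replicate numbers 1, 2 and 4) and of seedlings at day 7 (wt CT7, 4 libraries) from unstressed wt. The study follows the heat response of stem cells and the control of transposable elements (TEs) in the shoot apex of Arabidopsis, and the control tissues compared here carry no heat treatment. The wt of the study is the accession Col-0 with the reporter *pCLV3::H2BmCherry*, which marks nuclei of the stem cells at the shoot tip, and every plant of both groups carries it. The same tissues of the unstressed mutants *poliv* and *ddm1*, and sorted stem cell nuclei of unstressed wt, are set beside these groups further below. CI28 is RNA of hand-dissected, pooled inflorescence tips, which hold the shoot apex with its inflorescence meristem, from plants that had been moved to soil. CT7 is RNA of pooled whole seedlings grown in vitro, from which the roots had been removed. Tissue, age and growth condition therefore differ together between the groups and cannot be told apart. The deposited labels give no separate cultures for the replicates, so p-values measure the spread between libraries, which may be technical.

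The inflorescence meristem forms floral primordia where the vegetative meristem formed leaves. In each primordium, MADS domain transcription factors act in combinations that set sepals, petals, stamens and carpels, and inside the stamen the tapetum feeds the developing pollen and supplies the compounds of its wall. A seedling of this age consists mainly of green cotyledons, hypocotyl and the first leaves, tissues rich in transcripts of the light-harvesting and carbon-fixing proteins that the nucleus encodes for the chloroplast. In RNA of bulk tissue, fewer cells of a type and less RNA per cell cannot be told apart.

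The CI28 libraries held between 7456669 and 10497189 reads over annotated features, and the CT7 libraries between 8614232 and 15678264. Reads were found at 19831 to 20765 nuclear genes in CI28 and at 17983 to 19067 in CT7 (exact two-sided permutation test, p = 0.0286, the smallest value that 3 against 4 libraries allow), although 3 of the 4 CT7 libraries held more reads than any CI28 library. Values are normalized counts, which are reads divided by a size factor per library, and differences are log2 of the normalized count plus 1, CI28 minus CT7, tested with limma. A gene was called where the Benjamini-Hochberg adjusted p was under 0.05 and the difference over 1 on the log2 scale. Of 17468 nuclear genes tested, 2726 rose in CI28 (15.6%) and 2752 fell (15.8%), and the median over all genes was 0.19. The sums of normalized counts were lower in CI28, at 10014363 to 12675588, against 15664333 to 28254874 in CT7. When every library was scaled to the same sum, an alternative chosen after seeing the data, the log2 differences shifted by a median of 0.86 and their median came to 1.05, with 8073 genes called higher (86.0% of calls, against 49.8%) and 1310 lower. No gene named by rule changed direction under that scaling. The medians of the stomatal, root, immune, touch and reference gene lists did. Members below the minimum after that scaling were left out of these medians, among them *CASP1* of the root list.

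**Figure D1:**
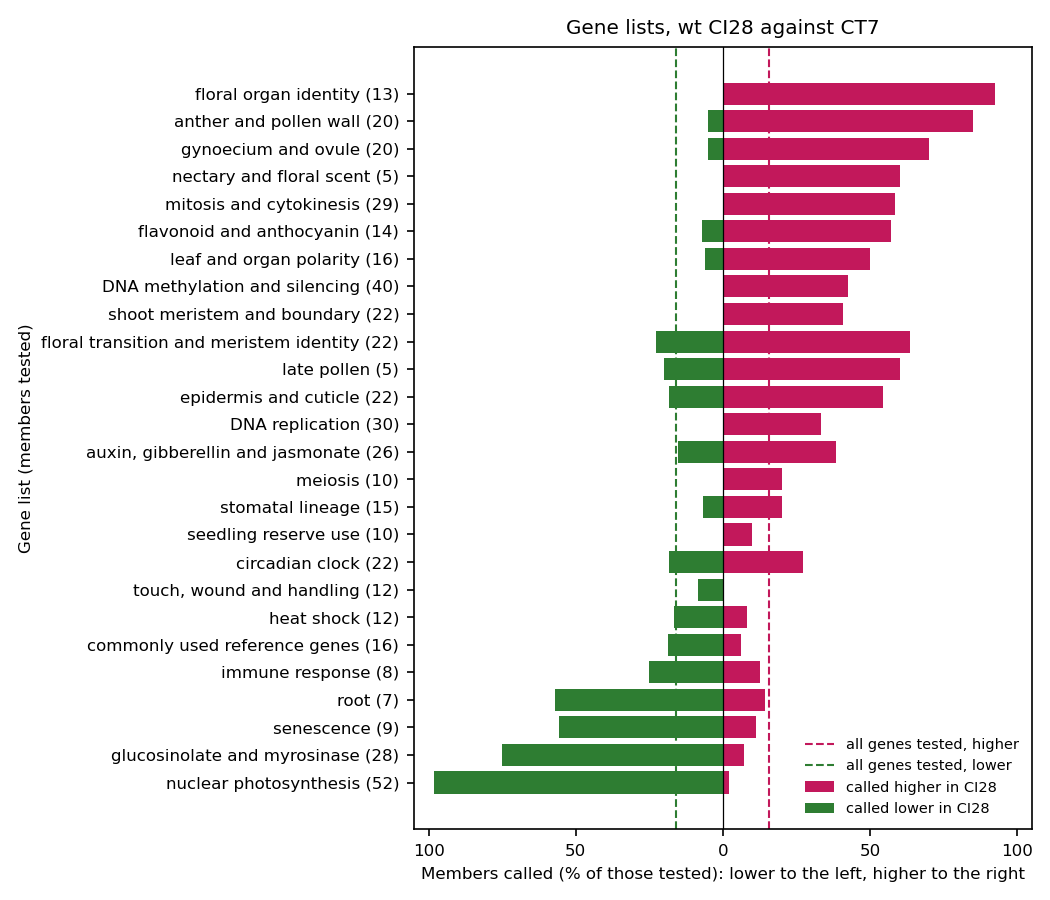
Share of the tested members of each gene list called higher (right) or lower (left) in wt CI28 than in wt CT7, in percent, for lists with at least 5 members tested. The number tested is in brackets, and dashed lines mark the shares over all genes tested. Floral organ identity stands at the top with 12 of 13 members higher and nuclear photosynthesis at the bottom with 51 of 52 lower.

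Genes of floral organ identity were higher in CI28 and most were at or near 0 in CT7. Of 14 genes on the list, 13 passed the filter on low values (a mean of at least 5 over the 7 libraries), and 12 of these rose, against the 15.6% of all genes. The median log2 difference of the tested members was 7.42, or 5.58 with members absent from CT7 set at their lower bound, and 0.19 over all genes. Such bounds divide the CI28 mean by the value of 3 reads per CT7 library. Members that passed only because they are high in CI28 had to differ, so this count describes the list and supports nothing further. Summed over all 14 genes, the libraries lay at 5578 to 6325 normalized counts in CI28 and at 70.3 to 89.7 in CT7.

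The petal and stamen factors *AP3* and *PI* act as a pair. *AP3* (chromosome 3) had 823, 597 and 609.6 normalized counts in wt CI28, against 0 in all 4 wt CT7 libraries, and was at least 133-fold higher, adjusted p = 1.1e-08. *PI* had 1533, 1241 and 1027 normalized counts in wt CI28, against 0, 5.52, 0 and 0 in wt CT7 (log2 fold change 9.61, SE 0.63, adjusted p = 2.0e-06), and its count in 1 CT7 library was 4 reads. *AG*, which sets stamens and carpels and ends the meristem, had 409.7, 302 and 348 normalized counts in wt CI28, against 5.41, 0, 0 and 1.76 in wt CT7 (log2 fold change 7.42, SE 0.62, adjusted p = 6.2e-06). The 3 CI28 libraries stood far above all CT7 libraries for each of these genes. *AP1*, which sets sepals and petals and the floral meristem itself, had 449, 434 and 594 normalized counts in wt CI28, against 0 in all 4 wt CT7 libraries (at least 97.1-fold higher, adjusted p = 2.6e-08). The SEPALLATA cofactors join the other MADS factors in complexes. *SEP2* had 877, 845 and 789.9 normalized counts in wt CI28, against 0 in all 4 wt CT7 libraries (at least 165-fold higher, adjusted p = 5.7e-09). *SEP1* had 476, 416 and 363 normalized counts in wt CI28, against 1.80, 0, 0 and 0 in wt CT7 (979-fold higher with a 95% counting interval of 175 to 38694, adjusted p = 2.7e-07). *SEP3* was measured in every CT7 library, with 1272, 1246 and 1477 normalized counts in wt CI28, against 27.0, 20.7, 29.1 and 31.7 in wt CT7 (log2 fold change 5.58, SE 0.20, adjusted p = 8.8e-09). *SEP4* overlapped between the groups, with 40.8, 44.6 and 20.03 normalized counts in wt CI28, against 14.4, 13.8, 20.003 and 24.6 in wt CT7, and was not called (log2 fold change 0.87, SE 0.38, adjusted p = 0.097), though without CI28 replicate 4 it was (adjusted p = 0.041). The organ factor *AP2*, which is known to be transcribed well outside flowers, differed least among the called members, with 100.3, 81.1 and 63.9 normalized counts in wt CI28, against 18.0, 26.2, 36.4 and 17.595 in wt CT7 (log2 fold change 1.73, SE 0.32, adjusted p = 0.0015).

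The carpel and ovule members of the list were lower in count and did not overlap either. *CRC*, which shapes the carpel and the nectary, had 178, 203 and 197 normalized counts in wt CI28, against 0 in all 4 wt CT7 libraries (at least 38.0-fold higher, adjusted p = 3.4e-07). *STK*, which sets ovule identity, had 51.0, 69.7 and 45.8 normalized counts in wt CI28, against 0 in all 4 wt CT7 libraries (at least 10.9-fold higher, adjusted p = 1.5e-05), and its relative *SHP2* had 54.4, 38.8 and 40.1 normalized counts in wt CI28, against 0 in all 4 wt CT7 libraries (at least 8.77-fold higher, adjusted p = 2.8e-05). *SHP1* was present at low counts in CT7, with 56.1, 56.0 and 48.7 normalized counts in wt CI28, against 3.604, 6.89, 3.64 and 14.1 in wt CT7 (log2 fold change 2.94, SE 0.47, adjusted p = 5.8e-04). *SUP*, which keeps stamens and carpels apart, had 5.10, 3.43 and 9.54 normalized counts in wt CI28, against 0 in all 4 wt CT7 libraries and did not pass the filter. The deposited labels give inflorescence meristem as the cell type of the seedling libraries, while their titles and tissue fields say seedlings. The near absence of *AP1*, *AP3*, *PI* and *AG* reads in CT7 goes with the titles.

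**Figure D2:**
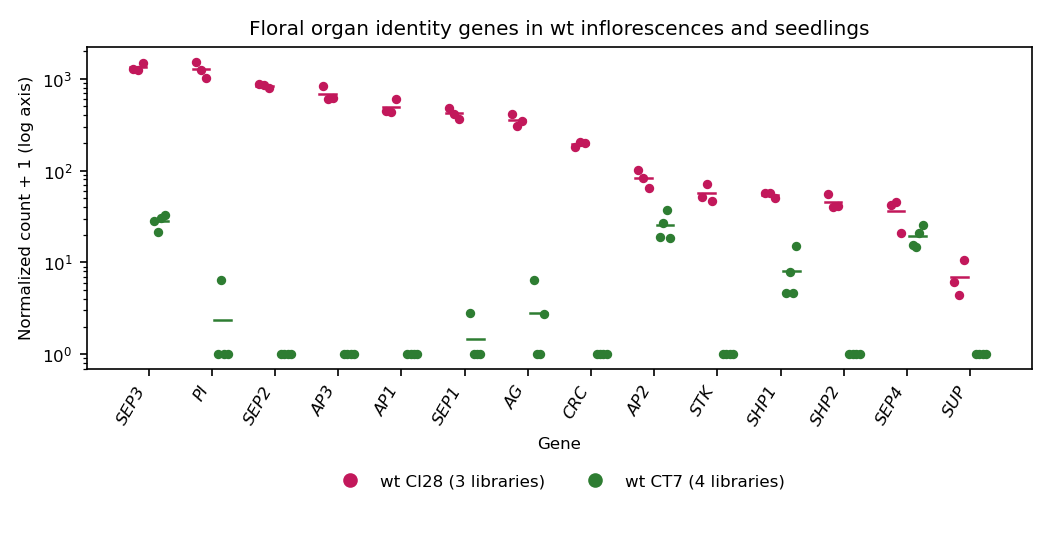
Normalized count plus 1 on a log axis of the 14 floral organ identity genes in the 3 wt CI28 (magenta) and 4 wt CT7 (green) libraries. Points are libraries and bars are group means. For 12 of the 13 members tested the CI28 libraries lie above every CT7 library, against 25.6% of all genes tested, with *AP3* at 597 to 823 against 0, while *SEP4* overlaps.

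Genes of the switch to flowering mostly rose, with repressors found on both sides. Of 34 listed genes 22 were tested, 14 rose and 5 fell, and the median log2 difference was 1.87. The shares of 63.6% and 22.7% stand against 15.6% and 15.8% of all genes. *AP1*, which is also on this list, was at 0 in every CT7 library, so the filter fixed its direction. The rising members included 5 SPL factors, which accumulate with plant age as microRNA156 declines. *SPL3* had 705, 586 and 778 normalized counts in wt CI28, against 5.41, 4.14, 9.09 and 0 in wt CT7 (log2 fold change 7.33, SE 0.69, adjusted p = 4.7e-05). *SPL5* had 231, 217 and 270.0 normalized counts in wt CI28, against 1.80, 0, 0 and 1.76 in wt CT7 (291-fold higher with a 95% counting interval of 80.1 to 2406, adjusted p = 1.7e-06). *FUL*, a MADS factor of meristem and fruit, had 136, 143 and 165 normalized counts in wt CI28, against 0, 1.38, 0 and 0 in wt CT7 (361-fold higher with a 95% counting interval of 64.4 to 14293, adjusted p = 2.3e-06). *SOC1*, the integrator of flowering signals, had 117, 99.4 and 102 normalized counts in wt CI28, against 54.1, 48.3, 47.3 and 21.1 in wt CT7 and rose by a smaller step (log2 fold change 1.37, SE 0.32, adjusted p = 0.0061). The 5 members that fell are all known as repressors of flowering, 4 of them AP2-type targets of microRNA172. *TOE1* had 1.70, 3.43 and 1.91 normalized counts in wt CI28, against 166, 163, 78.2 and 144 in wt CT7 (log2 fold change -5.35, SE 0.37, adjusted p = 1.3e-06). *SNZ* had 1.70, 1.14 and 0 normalized counts in wt CI28, against 28.8, 37.2, 14.5 and 22.9 in wt CT7 (33.5-fold lower with a 95% counting interval of 8.91 to 283, adjusted p = 3.6e-04). *SVP*, a MADS repressor that works with *FLC*, had 22.1, 27.4 and 21.9 normalized counts in wt CI28, against 382, 292, 89.1 and 114 in wt CT7 (log2 fold change -2.90, SE 0.47, adjusted p = 9.2e-04). Further MADS repressors, *FLM*, *MAF2* and *MAF3*, rose by 1.43, 2.05 and 1.48 on the log2 scale. *FLC* itself had 8.50, 6.85 and 7.63 normalized counts in wt CI28, against 30.6, 19.3, 18.18 and 10.6 in wt CT7 and was not called (adjusted p = 0.06). *SMZ* had 3.40, 1.14 and 1.91 normalized counts in wt CI28, against 14.4, 20.7, 3.64 and 10.6 in wt CT7 (log2 fold change -1.94, SE 0.66, adjusted p = 0.039), and its call was lost when any library but CT7 replicate 3 was left out (adjusted p = 0.06 to 0.13). *LFY*, the master regulator of floral meristems, had 5.10, 10.3 and 2.86 normalized counts in wt CI28, against 0 in all 4 wt CT7 libraries, and *FT*, the mobile flowering signal, had 5.10, 2.28 and 4.77 normalized counts in wt CI28, against 1.80, 0, 0 and 0 in wt CT7, so that neither reached the minimum for a test.

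On the list of meristem and boundary genes, 9 of 22 tested members rose, none fell (1 without CT7 replicate 2) and 13 were not called, and the median log2 difference was 0.75. The 9 make 40.9%, against 15.6% of all genes. Of the 9, *WUS* and *CUC3* were at 0 in every CT7 library and passed the filter only through CI28, so it fixed their direction. The rising members were *WUS*, 4 class I KNOX genes, *PNY*, *CUC2*, *CUC3* and *AGO10*. *STM*, which keeps meristem cells undifferentiated, had 263, 233 and 209 normalized counts in wt CI28, against 7.21, 22.1, 10.9 and 17.595 in wt CT7 (log2 fold change 4.04, SE 0.35, adjusted p = 8.6e-06). *WUS*, expressed in the organizing centre below the stem cells, had 34.0, 10.3 and 13.4 normalized counts in wt CI28, against 0 in all 4 wt CT7 libraries (at least 3.79-fold higher, adjusted p = 9.0e-04). *CUC3*, a boundary gene, had 10.2, 22.8 and 12.4 normalized counts in wt CI28, against 0 in all 4 wt CT7 libraries (at least 2.99-fold higher, adjusted p = 0.0011). *KNAT2* had 22.1, 38.8 and 20.03 normalized counts in wt CI28, against 1.80, 4.14, 0 and 0 in wt CT7 (log2 fold change 3.79, SE 0.73, adjusted p = 0.0018). *CLV3*, the peptide signal of the stem cells, was at 0 in all 3 CI28 libraries and had 2 reads in 1 CT7 library, and the reporter driven by its promoter was at 0 in all CI28 libraries and held 5 reads and 1 read in CT7 replicates 2 and 4. A count of 0 allows up to 3 reads, which is 2.86 to 5.10 normalized counts in these libraries, so that *CLV3* and the reporter were not detectable at this depth in whole tips. In sorted stem cell nuclei of unstressed wt at day 28, an assay of nuclei and not of tissue, *CLV3* lay between 4.13 and 18.5 normalized counts (4 libraries).

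Among genes of organ patterning, rises outnumbered falls. On the gynoecium and ovule list, 14 of 20 tested members rose and 1 fell (median 1.77). The shares of 70% and 5% stand against 15.6% and 15.8% of all genes. *CRC*, *STK*, *INO* and *HEC3* were at 0 in every CT7 library and passed only through CI28, so their direction was fixed by the filter. The rising count was 10 without CI28 replicate 2 and 11 without CI28 replicate 1. *INO*, which patterns the outer ovule integument, had 30.6, 21.7 and 46.7 normalized counts in wt CI28, against 0 in all 4 wt CT7 libraries (at least 6.51-fold higher, adjusted p = 9.2e-05). *HEC3*, a factor of the transmitting tract, had 35.7, 40.0 and 26.7 normalized counts in wt CI28, against 0 in all 4 wt CT7 libraries (at least 6.73-fold higher, adjusted p = 6.1e-05). Its relative *HEC1* fell, with 11.9, 6.85 and 6.68 normalized counts in wt CI28, against 36.0, 66.2, 43.6 and 68.6 in wt CT7 (log2 fold change -2.52, SE 0.37, adjusted p = 3.0e-04). On the polarity list, 8 of 16 members rose and 1 fell (median 1.32), but 5 rose without CI28 replicate 2. The 8 make 50% and the 1 makes 6.25%, against 15.6% and 15.8% of all genes. *KAN2* had 88.4, 81.1 and 53.4 normalized counts in wt CI28, against 19.8, 11.03, 9.09 and 14.1 in wt CT7 (log2 fold change 2.398, SE 0.35, adjusted p = 3.1e-04) and *ETT* had 212, 226 and 197 normalized counts in wt CI28, against 41.4, 63.4, 89.1 and 40.5 in wt CT7 (log2 fold change 1.91, SE 0.28, adjusted p = 3.4e-04), both factors of the lower organ side. *YAB5* was the member that fell, with 15.3, 5.71 and 6.68 normalized counts in wt CI28, against 112, 99.3, 70.9 and 153 in wt CT7 (log2 fold change -3.49, SE 0.38, adjusted p = 4.0e-05). *CRC* and *INO* stand on more than 1 of these lists and are counted in each, with their direction fixed by the filter on the polarity list too.

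Of 20 tested genes of anther and pollen wall formation, 17 rose in CI28 and 1 fell, with a median log2 difference of 7.37 (6.27 with the bounds). The 17 make 85% and the 1 makes 5%, against 15.6% and 15.8% of all genes. Of these 17 genes, 10 were at 0 in every CT7 library and passed the filter only through CI28, so their rise was fixed by the filter and the count describes the list. The sum over all 25 genes was 18927, 20857 and 29107 normalized counts (lowest, median, highest library) in CI28, against 129, 224 and 319 in CT7. *A9* and *ATA7* encode small secreted proteins of the tapetum. *A9* had 1561, 1409 and 1615 normalized counts in wt CI28, against 0 in all 4 wt CT7 libraries (at least 301-fold higher, adjusted p = 1.3e-09). *ATA7* had 4007, 3962 and 4379 normalized counts in wt CI28, against 0 in all 4 wt CT7 libraries (at least 812-fold higher, adjusted p = 1.4e-10). *A6*, related to the glucanases that free the microspores, had 15304, 8367 and 6233 normalized counts in wt CI28, against 1.80, 0, 0 and 0 in wt CT7 (21828-fold higher with a 95% counting interval of 3917 to 862211, adjusted p = 5.8e-09). *LAP5*, a polyketide synthase of sporopollenin precursors, had 1509.5, 1449 and 1228 normalized counts in wt CI28, against 0 in all 4 wt CT7 libraries (at least 275-fold higher, adjusted p = 1.8e-09). The tapetal regulator *AMS* and the sporopollenin enzymes *MS2*, *ACOS5*, *CYP703A2*, *CYP704B1*, *TKPR1* and *LAP6* rose as well. *TPD1*, the peptide ligand that sets tapetal fate, went the other way, with 22.1, 43.4 and 18.1 normalized counts in wt CI28, against 254, 223, 83.6 and 125 in wt CT7 (log2 fold change -2.54, SE 0.42, adjusted p = 8.2e-04), while its receptor *EMS1* rose (log2 fold change 3.10).

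Most of the 12 genes with the largest rises are known from the tapetum, the pollen coat or pollen itself. *GRP17*, *GRP19* and *GRP20* encode oleosin-like proteins of the pollen coat and belong to a gene cluster on chromosome 5. *GRP19* had 39682, 25411 and 29479.7 normalized counts in wt CI28, against 1.80, 0, 0 and 0 in wt CT7 (73033-fold higher with a 95% counting interval of 13108 to 2884688, adjusted p = 6.9e-10). *GRP20* had 22343, 16026 and 15926 normalized counts in wt CI28, against 3.604, 0, 0 and 0 in wt CT7 (20942-fold higher with a 95% counting interval of 5797 to 172932, adjusted p = 1.6e-07). *GRP17* had 35208, 15745 and 19257 normalized counts in wt CI28, against 1.80, 0, 0 and 7.04 in wt CT7 (log2 fold change 13.30, SE 0.77, adjusted p = 1.6e-05). The pollen coat lipase *EXL4* had 7219, 4838 and 6010.2 normalized counts in wt CI28, against 0 in all 4 wt CT7 libraries (at least 1188-fold higher, adjusted p = 1.2e-10), and the anther glucosidase *ATA27* had 10679, 6111 and 8192 normalized counts in wt CI28, against 0 in all 4 wt CT7 libraries (at least 1643-fold higher, adjusted p = 1.2e-10). No CT7 library held a read of either gene. *LTP12*, a tapetal lipid transfer protein, had 4785, 3025 and 3518 normalized counts in wt CI28, against 0 in all 4 wt CT7 libraries (at least 745-fold higher, adjusted p = 2.8e-10). *sks13*, related to multicopper oxidases, had 5258, 3108 and 3265 normalized counts in wt CI28, against 0 in all 4 wt CT7 libraries (at least 765-fold higher, adjusted p = 3.9e-10). The cell wall enzyme *XTH3* had 5793, 3659 and 4064 normalized counts in wt CI28, against 0 in all 4 wt CT7 libraries (at least 889-fold higher, adjusted p = 1.9e-10). The remaining pair were the vegetative storage proteins *VSP1* and *VSP2*, close copies whose reads may be shared, which accumulate with jasmonate and in flowers. *VSP1* had 66991, 46219 and 32529 normalized counts in wt CI28, against 9.01, 1.38, 3.64 and 7.04 in wt CT7 (log2 fold change 13.06, SE 0.48, adjusted p = 1.4e-07). *VSP2* had 13322, 9107 and 6132 normalized counts in wt CI28, against 0, 0, 7.27 and 0 in wt CT7 (log2 fold change 12.38, SE 0.80, adjusted p = 2.0e-05).

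**Figure D3:**
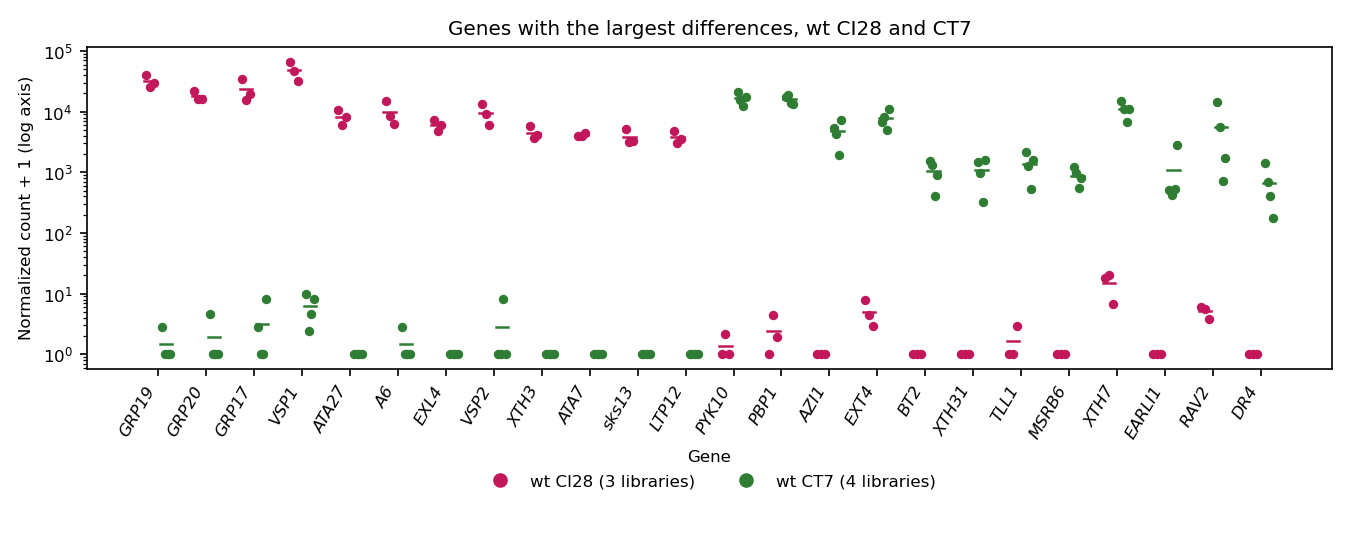
Normalized count plus 1 on a log axis of the 12 genes called higher and the 12 called lower in wt CI28 with the largest differences, among genes whose higher group averaged 100 or more. Points are libraries (3 wt CI28 in magenta, 4 wt CT7 in green) and bars are group means. The left 12 reach 3025 or more in every CI28 library, and the right 12, from *PYK10* to *DR4*, stay at 19.4 or less there.

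A few markers of late pollen were high in CI28, while meiosis genes were mostly too low for a test or not called. Only 5 of 15 late pollen genes in the table passed the filter. Of these, 3 rose (60%, against 15.6% of all genes) and 1 fell (20%, near 15.8%). The 3 that rose were at 0 in every CT7 library and passed only through CI28, so their direction was fixed by the filter. *VGD1*, a pectin methylesterase of the pollen tube, had 2557, 1808 and 1504 normalized counts in wt CI28, against 0 in all 4 wt CT7 libraries (at least 386-fold higher, adjusted p = 1.5e-09). *STP9*, a sugar transporter of pollen, had 415, 189.6 and 295 normalized counts in wt CI28, against 0 in all 4 wt CT7 libraries (at least 59.1-fold higher, adjusted p = 2.3e-07). The peptide gene *RALF4* had 85.0, 58.3 and 55.3 normalized counts in wt CI28, against 0 in all 4 wt CT7 libraries (at least 13.1-fold higher, adjusted p = 9.7e-06). The sperm cell and gamete genes *DUO1*, *MGH3*, *HAP2*, *GEX1* and *GEX2* did not reach the minimum. *SKM1*, a receptor kinase also used in other tissues, fell, with 10.2, 6.85 and 4.77 normalized counts in wt CI28, against 23.4, 27.6, 38.2 and 37.0 in wt CT7 (log2 fold change -2.001, SE 0.39, adjusted p = 0.0021). Of 24 meiosis genes 10 were tested and 2 called higher (20%, near the 15.6% of all genes). These were *PRD3* with 22.1, 19.4 and 26.7 normalized counts in wt CI28, against 7.21, 11.03, 1.82 and 1.76 in wt CT7 (log2 fold change 2.16, SE 0.62, adjusted p = 0.018) and *OSD1* with 34.0, 42.3 and 46.7 normalized counts in wt CI28, against 10.8, 23.4, 21.8 and 26.4 in wt CT7 (log2 fold change 1.02, SE 0.36, adjusted p = 0.045). Both calls were lost when any 1 CI28 library was left out (adjusted p = 0.053 to 0.073 for *PRD3*, and adjusted p = 0.051 to 0.14 for *OSD1*, which also lost its call without CT7 replicate 1, 2 or 3). *SPO11-1*, which makes the double-strand breaks of meiosis, was too low for a test, and the recombinase gene *DMC1* had a log2 difference of 0.49 (adjusted p = 0.39).

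Of 29 genes of mitosis and cytokinesis, all of which were tested, 17 rose in CI28, none fell and 12 were not called (median 1.48). The 17 make 58.6%, against 15.6% of all genes. The sum of the list was 3104, 3519 and 3599.7 normalized counts in CI28 (lowest, median, highest library), against 908, 1275 and 1409 in CT7. *TPX2*, a spindle assembly factor, had 110.5, 81.1 and 88.7 normalized counts in wt CI28, against 9.01, 15.2, 25.5 and 24.6 in wt CT7 (log2 fold change 2.36, SE 0.37, adjusted p = 4.8e-04). *CDC20.2*, an activator of the anaphase-promoting complex, had 280.5, 393 and 350.1 normalized counts in wt CI28, against 48.7, 68.9, 122 and 100.3 in wt CT7 (log2 fold change 2.06, SE 0.30, adjusted p = 3.0e-04). *CYCB2;3* had 45.9, 76.5 and 63.0 normalized counts in wt CI28, against 7.21, 13.8, 38.2 and 14.1 in wt CT7 (log2 fold change 1.91, SE 0.48, adjusted p = 0.0089). *CYCB3;1* had 17.0, 22.8 and 21.9 normalized counts in wt CI28, against 0, 4.14, 12.7 and 1.76 in wt CT7 (log2 fold change 2.52, SE 0.80, adjusted p = 0.028). The call of *CYCB3;1* was lost without any 1 of the 3 CI28 libraries or without CT7 replicate 4 (adjusted p = 0.056 to 0.099). Of 30 tested replication genes, 10 rose, none fell (1 without CT7 replicate 3) and 20 were not called (median 0.71). The 10 make 33.3%, against 15.6% of all genes. The risers included the helicase subunit *MCM2* with 110.5, 115 and 94.4 normalized counts in wt CI28, against 39.6, 38.6, 9.09 and 49.3 in wt CT7 (log2 fold change 1.84, SE 0.49, adjusted p = 0.014) and the licensing factor *CDT1a* with 74.8, 83.4 and 53.4 normalized counts in wt CI28, against 25.2, 22.1, 16.4 and 15.8 in wt CT7 (log2 fold change 1.78, SE 0.30, adjusted p = 8.3e-04). The call of *MCM2* was lost without CI28 replicate 2 (adjusted p = 0.053). With 1 library left out the mitosis list gave 14 to 18 rising members and the replication list 5 to 10, the fewest without CI28 replicate 2 and 6 without CI28 replicate 4.

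Promoters of G2 and M phase genes are known to hold the MYB core AACGG, which 3-repeat MYB factors bind. It was searched on both strands in the 300 bases before the annotated start of the gene, cut from the RefSeq assembly TAIR10.1. It was found in 20 of 29 windows of the mitosis list (69.0%), and in 23.4% of 27437 windows of all nuclear protein-coding genes. A match is a description of letters and not a bound site. The window of *CYCB2;3*, a member that rose, is shown 5′ to 3′ along the gene, with every match in capitals (chr1:7137829-7138128, minus strand).
CYCB2;3: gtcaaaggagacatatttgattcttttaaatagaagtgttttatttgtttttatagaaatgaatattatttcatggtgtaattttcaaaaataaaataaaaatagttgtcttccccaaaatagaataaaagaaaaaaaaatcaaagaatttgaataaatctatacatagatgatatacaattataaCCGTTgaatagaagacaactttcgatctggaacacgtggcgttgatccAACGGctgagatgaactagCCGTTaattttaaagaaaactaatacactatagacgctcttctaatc

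In *CYCB2;3* the matches began at -114, -66 and -47 relative to the gene start. *CDC20.2*, which rose by a similar step, held no match in its window. The CArG box, the element of MADS factors, was found on the floral organ identity list only in the window of *SHP2*, 1 of 14 windows (7.14%, and 2.92% of all windows).

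Nuclear genes of photosynthesis were lower in CI28. Of 52 genes, 51 fell, against 15.8% of all genes, and 1 rose, with a median log2 difference of -2.16. With the same sum in every library the median was -1.27, against 1.05 over all genes, and 37 of the 52 were called lower. The list took 20.23% to 24.4% of all reads in CI28 and 41.4% to 48.2% in CT7, and its sum was 2148341, 2442454 and 2564196 normalized counts in CI28 (lowest, median, highest library), against 6482921, 8665205 and 13615736 in CT7. The antenna protein gene *LHCB1.4* fell most, with 1970.2, 1798 and 2780.0 normalized counts in wt CI28, against 231314, 119928, 76197 and 78334 in wt CT7 (log2 fold change -5.73, SE 0.37, adjusted p = 1.0e-06). *PSBO2*, of the oxygen-evolving complex, had 4867, 3441 and 3808 normalized counts in wt CI28, against 53663, 32902, 23409 and 31511 in wt CT7 (log2 fold change -3.08, SE 0.28, adjusted p = 1.1e-05). *PRK*, phosphoribulokinase of the Calvin cycle, had 5205, 3769 and 3714 normalized counts in wt CI28, against 47801, 28460.3, 18761 and 31726 in wt CT7 (log2 fold change -2.84, SE 0.30, adjusted p = 3.0e-05). *LHCB2.4* had 7622, 7178 and 8710.1 normalized counts in wt CI28, against 124514, 74346, 24339.6 and 37181 in wt CT7 (log2 fold change -2.78, SE 0.49, adjusted p = 0.002). The smallest falls were those of 2 Rubisco small subunit genes, *RBCS1A* by 1.24 and *RBCS3B* by 1.07 on the log2 scale. *LHCB1.1*, *LHCB1.2* and *LHCB1.3* are near-identical copies whose counts can be split between them.

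The exception was *LHCB4.3*, a rarer relative of the antenna protein CP29, which rose, with 2822, 2229 and 1785 normalized counts in wt CI28, against 247, 207, 92.7 and 141 in wt CT7 (log2 fold change 3.79, SE 0.32, adjusted p = 6.7e-06). All CI28 libraries stood above all CT7 libraries for this gene, while for *LHCB4.1* and *LHCB4.2*, the major copies, the log2 differences were -2.28 and -2.77. The rise also held with the same sum in every library (log2 fold change 4.67).

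**Figure D4:**
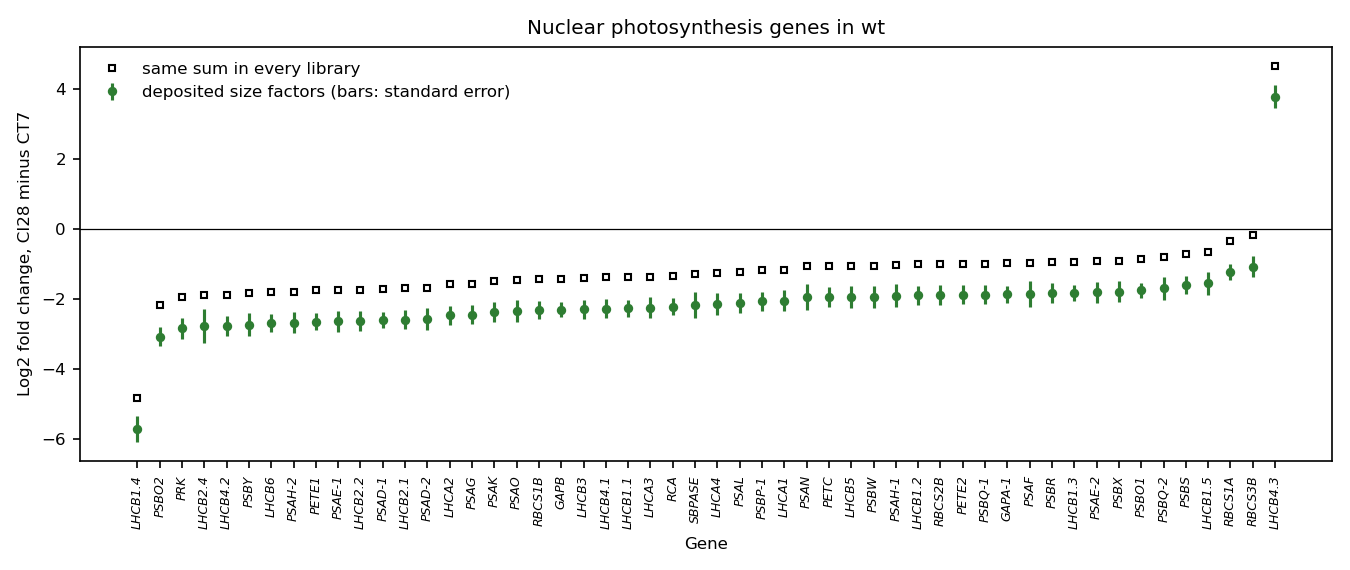
Log2 fold change, wt CI28 minus wt CT7, of the 52 nuclear photosynthesis genes, ordered by size. Filled points use the deposited size factors with bars of 1 standard error, and open squares give each library the same sum. The 51 filled points from *LHCB1.4* at -5.73 to *RBCS3B* lie below 0, and *LHCB4.3* at 3.79 lies above it.

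The G-box CACGTG, a palindrome bound by light-regulated bZIP and bHLH factors, was found in 11 of 52 windows of 300 bases on this list (21.2%), and in 7.09% of all windows. The windows of *PRK* and *LHCB2.4*, which fell and hold a match, are shown as examples 5′ to 3′ with the match in capitals (*PRK*: chr1:11531899-11532198, plus strand; *LHCB2.4*: chr3:10255606-10255905, plus strand).
PRK: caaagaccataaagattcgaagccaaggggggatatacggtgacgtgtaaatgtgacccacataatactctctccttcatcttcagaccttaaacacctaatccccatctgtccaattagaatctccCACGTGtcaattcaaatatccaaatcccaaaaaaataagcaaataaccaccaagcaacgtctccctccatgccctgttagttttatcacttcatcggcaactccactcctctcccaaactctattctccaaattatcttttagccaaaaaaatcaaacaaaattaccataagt
LHCB2.4: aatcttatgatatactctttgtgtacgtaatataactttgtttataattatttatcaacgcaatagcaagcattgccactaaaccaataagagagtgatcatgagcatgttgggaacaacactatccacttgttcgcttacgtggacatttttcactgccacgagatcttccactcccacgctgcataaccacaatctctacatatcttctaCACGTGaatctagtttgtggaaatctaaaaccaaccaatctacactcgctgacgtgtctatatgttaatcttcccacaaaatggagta

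The match began at -173 in *PRK* and at -88 in *LHCB2.4*. The other 41 windows of the list held none, among them those of *LHCB1.4* and *PSBO2*, which fell most, and that of *LHCB4.3*, which rose. The organelle genomes went different ways. Of 101 chloroplast genes tested, 47 fell and none rose (median -1.62), whereas of 37 mitochondrial genes 15 rose and 1 fell (median 1.496), where 10.9% of all organelle genes rose and 34.8% fell. Over both genomes 15 genes rose and 48 fell, but 31 rose and 27 fell with the same sum in every library, where the medians were -0.73 for the chloroplast and 2.39 for the mitochondrion. Without CI28 replicate 4 the rising count was 9. Mitochondrial genes held 2.31, 3.08 and 3.07% of reads in CI28, against 0.827, 0.578, 0.661 and 0.767% in CT7, so that the groups did not overlap (exact two-sided permutation test, p = 0.0286). The chloroplast share did not separate the groups, at 3.91% to 5.93% in CI28 and 4.42% to 8.81% in CT7 (exact p = 0.771). The share of both organelles together was 7.83% ± 1.05 in CI28 and 6.45% ± 2.17 in CT7 (SD, n = 3 and 4, exact p = 0.4).

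Glucosinolates are sulfur-rich defence compounds of Brassicaceae that myrosinases break down on wounding. Genes of their synthesis were lower in the inflorescence tips, and a pair of breakdown genes was higher. Of 28 tested genes, 21 fell and 2 rose (median -3.50, and -2.61 with the same sum in every library). The 21 make 75%, against 15.8% of all genes, and the 2 make 7.14%, against 15.6%. Of the genes for chain elongation of methionine-derived glucosinolates, *MAM1* and *BCAT4* were close to 0 in CI28. *MAM1* had 3.40, 1.14 and 0 normalized counts in wt CI28, against 627, 298, 151 and 243 in wt CT7 (274-fold lower with a 95% counting interval of 93.4 to 1332, adjusted p = 7.2e-06). *BCAT4* had 3.40, 1.14 and 0 normalized counts in wt CI28, against 323, 287, 85.5 and 208 in wt CT7 (193-fold lower with a 95% counting interval of 65.6 to 937, adjusted p = 9.5e-06). Cytochromes P450 of the core pathway fell as well. *CYP79F1* had 0, 1.14 and 0 normalized counts in wt CI28, against 169, 284, 38.2 and 106 in wt CT7 (399-fold lower with a 95% counting interval of 71.2 to 15801, adjusted p = 1.7e-05). Its close copy *CYP79F2* had 0 normalized counts in all 3 wt CI28 libraries, against 106, 80.0, 40.0 and 95.0 in wt CT7 (at least 21.2-fold lower, adjusted p = 2.7e-06). The MYB regulators *MYB28*, *MYB29*, *MYB34* and *MYB51* fell by 1.90, 3.93, 1.95 and 4.36 on the log2 scale. The members that rose were the myrosinase *TGG2*, with 40002, 34967 and 31036 normalized counts in wt CI28, against 1271, 1140.3, 871 and 1202 in wt CT7 (log2 fold change 4.98, SE 0.21, adjusted p = 2.3e-08), and the epithiospecifier *ESP*, with 62.9, 50.3 and 50.6 normalized counts in wt CI28, against 14.4, 9.65, 3.64 and 8.80 in wt CT7 (log2 fold change 2.57, SE 0.44, adjusted p = 8.2e-04). The other main myrosinase, *TGG1*, had 23312, 18725 and 18125 normalized counts in wt CI28, against 22963, 19253, 14767 and 17852 in wt CT7, and its difference of 0.11 was not called (adjusted p = 0.72).

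The atypical myrosinase *PYK10* of endoplasmic reticulum bodies fell furthest on the log2 scale among the genes tested and named, with 0, 1.14 and 0 normalized counts in wt CI28, against 21536, 15359, 12225 and 17608 in wt CT7 (41703-fold lower with a 95% counting interval of 7484 to 1647212, adjusted p = 1.8e-10). Its lectin partner *PBP1* (AT3G16420) had 0, 3.43 and 0.954 normalized counts in wt CI28, against 17748, 18939, 14136 and 13318 in wt CT7 (log2 fold change -12.92, SE 0.42, adjusted p = 2.5e-08). *PYK10* is known from roots and from hypocotyls and cotyledons of seedlings, and it also stands on the list of root markers, which were measured because roots could have remained on the seedlings. Of 16 root markers 7 were tested, 4 fell and 1 rose, and the median was -1.502. With the same sum in every library it was 0.11, but *CASP1* then fell below the minimum, so these medians cover different members. The falling share was 57.1%, against 15.8% of all genes, and the rising share of 14.3% was near their 15.6%. The phosphate transporter *PHT1;1* had 0 normalized counts in all 3 wt CI28 libraries, against 160.4, 82.7, 92.7 and 148 in wt CT7 (at least 31.9-fold lower, adjusted p = 3.8e-07), and the endodermal *CASP1* had 0 normalized counts in all 3 wt CI28 libraries, against 37.8, 5.52, 12.7 and 10.6 in wt CT7 (at least 4.39-fold lower, adjusted p = 0.0018). *COBL9*, a root hair gene, was called higher, with 13.6, 16.0 and 10.5 normalized counts in wt CI28, against 10.8, 1.38, 0 and 0 in wt CT7 (log2 fold change 2.62, SE 0.89, adjusted p = 0.037), and lost its call without any library but CT7 replicate 1 (adjusted p = 0.064 to 0.13). The root tip genes *WOX5*, *PLT1*, *PLT2* and *SMB* did not reach the minimum. The part of root tissue in the CT7 values was not tested.

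Several of the other genes with the largest falls act in cell walls or in defence priming. *AZI1* and *EARLI1*, neighbouring lipid transfer-like genes on chromosome 4, had no read in CI28. *AZI1* had 0 normalized counts in all 3 wt CI28 libraries, against 5434, 4275, 1906 and 7397 in wt CT7 (at least 1252-fold lower, adjusted p = 7.4e-09). *EARLI1* had 0 normalized counts in all 3 wt CI28 libraries, against 505, 426, 533 and 2873 in wt CT7 (at least 286-fold lower, adjusted p = 2.6e-06). The extensin *EXT4* had 6.80, 3.43 and 1.91 normalized counts in wt CI28, against 6827, 8175, 5059 and 11157 in wt CT7 (log2 fold change -10.65, SE 0.35, adjusted p = 6.3e-09). The xyloglucan enzymes *XTH31* and *XTH7* fell in every CI28 library, in contrast to *XTH3* of the same family. *XTH31* had 0 normalized counts in all 3 wt CI28 libraries, against 1454, 969, 322 and 1626 in wt CT7 (at least 288-fold lower, adjusted p = 2.3e-07). *XTH7* had 17.0, 19.4 and 5.72 normalized counts in wt CI28, against 15165, 11079, 6855 and 11067 in wt CT7 (log2 fold change -9.62, SE 0.40, adjusted p = 6.9e-08). *RAV2*, also known as TEMPRANILLO2, a repressor of flowering, had 5.10, 4.57 and 2.86 normalized counts in wt CI28, against 14572, 5532, 718 and 1705 in wt CT7 (log2 fold change -9.28, SE 1.04, adjusted p = 7.9e-04) and spread widely over the seedling libraries. The remaining members were *BT2*, a nutrient-responsive scaffold protein (at least 277-fold lower, adjusted p = 2.3e-08), *TLL1*, a lipase (1743-fold lower with a 95% counting interval of 482 to 14396, adjusted p = 1.1e-06), *MSRB6*, a methionine sulfoxide reductase (at least 233-fold lower, adjusted p = 2.5e-09), and *DR4*, a drought-repressed protease inhibitor-like gene (at least 179-fold lower, adjusted p = 2.1e-06).

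Genes of flavonol synthesis were higher in the inflorescence. Of 14 tested genes, 8 rose (57.1%, against 15.6% of all genes) and 1 fell (7.14%, against 15.8%), with a median of 2.74. *CHS*, the entry enzyme, had 44500.0, 35662 and 16789.5 normalized counts in wt CI28, against 2516, 2654, 1547 and 2945 in wt CT7 (log2 fold change 3.67, SE 0.34, adjusted p = 1.4e-05). *F3H* had 6441, 5843 and 1699 normalized counts in wt CI28, against 84.7, 96.5, 63.6 and 169 in wt CT7 (log2 fold change 5.35, SE 0.50, adjusted p = 5.2e-05). *FLS1*, flavonol synthase, had 10976, 8151 and 3039 normalized counts in wt CI28, against 86.5, 99.3, 58.2 and 157 in wt CT7 (log2 fold change 6.09, SE 0.46, adjusted p = 1.2e-05). *MYB12*, the regulator of flavonol genes, had 74.8, 72.0 and 32.4 normalized counts in wt CI28, against 0, 1.38, 0 and 1.76 in wt CT7 (67.3-fold higher with a 95% counting interval of 18.3 to 561, adjusted p = 7.9e-05). In each of these genes CI28 replicate 4 was the lowest of the 3 and still above every CT7 library. *LDOX*, the enzyme that leads to anthocyanidins, fell, with 8.50, 16.0 and 7.63 normalized counts in wt CI28, against 37.8, 41.4, 47.3 and 22.9 in wt CT7 (log2 fold change -1.73, SE 0.39, adjusted p = 0.005), a call that was lost with the same sum in every library. *DFR* had 3.40, 11.4 and 0 normalized counts in wt CI28, against 54.1, 40.0, 20.003 and 5.28 in wt CT7 and was not called (adjusted p = 0.0503).

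Most called genes of epidermis and cuticle were higher in the inflorescence. Of 22 tested, 12 rose and 4 fell (median 1.41). The rising share was 54.5%, against 15.6% of all genes, and the falling share of 18.18% was near their 15.8%. *SHN1*, a regulator of wax and cutin, had 335, 199 and 215 normalized counts in wt CI28, against 0, 0, 0 and 1.76 in wt CT7 (569-fold higher with a 95% counting interval of 102 to 22515, adjusted p = 1.1e-06). *CER1*, which makes wax alkanes, had 8833, 5714 and 4465 normalized counts in wt CI28, against 126, 82.7, 96.4 and 100.3 in wt CT7 (log2 fold change 5.91, SE 0.26, adjusted p = 3.1e-08). *DCR* and *CYP77A6*, known from the cutin of flowers, had log2 fold changes of 4.89 and 4.56. *DCR* lay at 14818, 9884 and 8908 normalized counts in wt CI28, against 294, 407, 440.1 and 347 in wt CT7. The 4 members that fell, *GL2*, *CER5*, *GPAT8* and *KCS1*, did so by 1.502, 1.43, 1.17 and 1.13, and each of these calls was lost with the same sum in every library. The *KCS1* call was also lost without CI28 replicate 2 or 4 or CT7 replicate 1 or 4 (adjusted p = 0.11 to 0.17). On the stomatal list 3 of 15 members rose (20%, near the 15.6% of all genes) and 1 fell (6.67%, against 15.8%). The risers were the receptor kinases *ER*, *ERL1* and *ERL2*, which also act in inflorescence growth. The peptide gene *EPF2* fell by 1.36, a call lost without CI28 replicate 1 or 4 (adjusted p = 0.055 to 0.067). This call was also lost with the same sum in every library. *ER* had 719, 813 and 1071 normalized counts in wt CI28, against 103, 117, 155 and 114 in wt CT7 (log2 fold change 2.81, SE 0.22, adjusted p = 3.1e-06). The lineage factors *SPCH*, *MUTE* and *FAMA* were not called, with log2 differences of -0.01, -1.47 and 0.47. The median of the list was -0.13, and 0.75 with the same sum in every library.

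Hormone genes showed opposite directions within a pathway. Of 26 tested genes of auxin, gibberellin and jasmonate, 10 rose and 4 fell. The rising share was 38.5%, against 15.6% of all genes, and the falling share of 15.4% was near their 15.8%. In jasmonate synthesis, the lipoxygenase *LOX2* rose, with 3107, 2249 and 1579 normalized counts in wt CI28, against 159, 75.8, 78.2 and 181 in wt CT7 (log2 fold change 4.27, SE 0.36, adjusted p = 8.2e-06), while *AOS*, *AOC1* and *AOC2* of later steps fell. *OPR3*, which acts after them, was tested and was not among the 4 called lower. *AOS* had 98.6, 66.3 and 27.7 normalized counts in wt CI28, against 769.5, 638, 331 and 320.2 in wt CT7 (log2 fold change -3.05, SE 0.47, adjusted p = 8.3e-04). *AOC2* had 3.40, 0 and 1.91 normalized counts in wt CI28, against 926, 609, 204 and 216 in wt CT7 (log2 fold change -7.41, SE 0.67, adjusted p = 4.0e-05). *AOC1* had 1.70, 3.43 and 6.68 normalized counts in wt CI28, against 1186, 563, 102 and 436 in wt CT7 (log2 fold change -6.53, SE 0.80, adjusted p = 4.9e-04), copies similar enough to share reads. The auxin response factors *ARF5*, *ARF6* and *ARF8* rose by 3.07, 3.56 and 3.21 on the log2 scale. *ARF6*, which acts with *ARF8* in flower maturation, had 308, 377 and 416 normalized counts in wt CI28, against 32.4, 34.5, 29.1 and 24.6 in wt CT7 (log2 fold change 3.56, SE 0.22, adjusted p = 4.9e-07). The gibberellin enzyme *GA3OX1* fell, with 13.6, 16.0 and 11.4 normalized counts in wt CI28, against 97.3, 189, 90.9 and 290.3 in wt CT7 (log2 fold change -3.36, SE 0.39, adjusted p = 6.4e-05). Of 13 nectary and scent genes, 5 were tested and 3 rose (60%, against 15.6% of all genes). The risers were *CRC*, the terpene synthase *TPS11* with 90.09, 101 and 102 normalized counts in wt CI28, against 0 in all 4 wt CT7 libraries (at least 19.2-fold higher, adjusted p = 2.6e-06) and the invertase *CWINV4* with 51.0, 67.4 and 74.4 normalized counts in wt CI28, against 0, 0, 0 and 3.52 in wt CT7 (79.7-fold higher with a 95% counting interval of 21.7 to 664, adjusted p = 8.1e-05). *CRC* and *TPS11* were at 0 in every CT7 library and passed only through CI28, so their direction was fixed by the filter.

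Of 40 tested genes of DNA methylation and silencing, 17 rose in CI28 and none fell, or 1 without CT7 replicate 4 (median 1.01). The 17 make 42.5%, against 15.6% of all genes. On this list 10 rose without CI28 replicate 1, 11 without CI28 replicate 2 or 4, and 16 to 18 without a CT7 library. *AGO9* and *AGO5*, Argonautes of reproductive tissue, rose most. *AGO9* had 350.2, 306 and 406 normalized counts in wt CI28, against 0, 0, 0 and 1.76 in wt CT7 (859-fold higher with a 95% counting interval of 154 to 33979.6, adjusted p = 3.8e-07). *AGO5* had 88.4, 76.5 and 45.8 normalized counts in wt CI28, against 0, 1.38, 0 and 0 in wt CT7 (159-fold higher with a 95% counting interval of 28.2 to 6335, adjusted p = 2.2e-05). *CLSY3*, a chromatin remodeller that directs RNA polymerase IV in reproductive tissue, had 34.0, 42.3 and 30.5 normalized counts in wt CI28, against 1.80, 0, 0 and 0 in wt CT7 (85.0-fold higher with a 95% counting interval of 14.9 to 3394, adjusted p = 1.4e-04). *AGO2* had 37.4, 26.3 and 26.7 normalized counts in wt CI28, against 3.604, 2.76, 5.46 and 0 in wt CT7 (log2 fold change 3.24, SE 0.67, adjusted p = 0.0029). The list members *NRPD2*, *NRPE1*, *DCL3* and *AGO4* rose by 2.23, 1.79, 2.56 and 2.24, as did *DDM1* by 1.22 and the demethylase *ROS1* by 2.93 on the log2 scale. The maintenance methyltransferase *MET1* (0.15, adjusted p = 0.66) and *CMT3* (0.48, adjusted p = 0.11) were not called.

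TEs held a small share of reads in both tissues. It was 0.149, 0.166 and 0.161% in CI28, against 0.0727, 0.148, 0.234 and 0.189% in CT7, and the means of 0.158% ± 0.00881 and 0.161% ± 0.0686 (SD, n = 3 and 4) did not differ beyond the spread (exact two-sided permutation test, p = 1). CI28 libraries held reads of 673 to 893 TEs and CT7 libraries of 386 to 561 (exact p = 0.0286). Of 31189 TEs in the table only 189 reached the minimum, of which 21 rose (11.1%) and 12 fell (6.35%). The count of rising TEs was 10 without CI28 replicate 2 and 11 without CI28 replicate 1 or 4. AT2TE07345 had 296, 359.9 and 183 normalized counts in wt CI28, against 1.80, 0, 9.09 and 5.28 in wt CT7 (log2 fold change 6.21, SE 0.70, adjusted p = 8.0e-05), AT4TE03410 had 141, 142 and 251 normalized counts in wt CI28, against 5.41, 6.89, 12.7 and 7.04 in wt CT7 (log2 fold change 4.32, SE 0.36, adjusted p = 6.0e-06) and AT4TE52280 had 15.3, 12.6 and 26.7 normalized counts in wt CI28, against 0 in all 4 wt CT7 libraries (at least 3.59-fold higher, adjusted p = 5.8e-04). Of those that fell, AT4TE54820 had 0 normalized counts in all 3 wt CI28 libraries, against 236, 1466, 1424 and 1474 in wt CT7 (at least 303-fold lower, adjusted p = 3.6e-06), AT5TE11920 had 0 normalized counts in all 3 wt CI28 libraries, against 54.1, 34.5, 47.3 and 44.0 in wt CT7 (at least 11.8-fold lower, adjusted p = 6.8e-06) and AT5TE49725 had 0, 1.14 and 3.82 normalized counts in wt CI28, against 59.5, 63.4, 5.46 and 22.9 in wt CT7 (log2 fold change -3.68, SE 0.85, adjusted p = 0.0058). The table gives no positions of TEs, so whether these reads belong to neighbouring genes was not tested.

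Of the lists tied to age, time of day and handling, senescence held the largest share of called members. Of 9 tested senescence genes, 5 fell (55.6%, against 15.8% of all genes) and 1 rose (11.1%, against 15.6%). Thus 5 of these genes were higher in the younger seedlings. *WRKY53*, the riser, had 79.9, 59.4 and 46.7 normalized counts in wt CI28, against 27.0, 24.8, 3.64 and 28.2 in wt CT7 (log2 fold change 1.80, SE 0.61, adjusted p = 0.041) and lost its call without any CI28 library or without CT7 replicate 2 (adjusted p = 0.0503 to 0.13). *SAG21*, which responds to oxidative stress, had 18.7, 58.3 and 16.2 normalized counts in wt CI28, against 7739, 4113, 8616 and 8006 in wt CT7 (log2 fold change -7.98, SE 0.44, adjusted p = 9.8e-07), and the dark-inducible *SEN1* had 180.2, 165 and 688 normalized counts in wt CI28, against 11954, 6216, 6545 and 6199 in wt CT7 (log2 fold change -4.76, SE 0.49, adjusted p = 9.2e-05). *SAG12*, the classical marker of leaf senescence, was at 0 in 6 of the 7 libraries. On the clock list 6 of 22 rose (27.3%, against 15.6% of all genes) and 4 fell (18.18%, near the 15.8% of all genes). The rising count moved with the processing, with 14 rising and 2 falling with the same sum in every library, and with 2 rising without CI28 replicate 1, 3 without CI28 replicate 2 and 4 without CT7 replicate 3 or 4. The morning gene *LHY* had 2779, 2827 and 547 normalized counts in wt CI28, against 256, 248, 251 and 528 in wt CT7 (log2 fold change 2.42, SE 0.60, adjusted p = 0.015), and its call was lost without CI28 replicate 1 (adjusted p = 0.051). *CCR2* had 4226, 4347 and 2055 normalized counts in wt CI28, against 741, 1062, 933 and 936 in wt CT7 (log2 fold change 1.88, SE 0.28, adjusted p = 3.3e-04), whereas *CCR1* had 1391, 1351 and 1093 normalized counts in wt CI28, against 6254, 4797, 3773 and 5184 in wt CT7 (log2 fold change -1.95, SE 0.22, adjusted p = 4.7e-05), both RNA-binding proteins under clock control. Of 12 touch and wound genes 1 was called (8.33%, below the 15.8% of all genes that fell), *TCH3*, with 401, 254 and 345 normalized counts in wt CI28, against 9642, 3482, 1235 and 2453 in wt CT7 (log2 fold change -3.27, SE 0.62, adjusted p = 0.0044). The list varied widely within the seedlings, its sum lying at 655 to 2026 normalized counts in CI28 and at 1895 to 21792 in CT7. Without CT7 replicate 3, 1 member was called higher and 3 lower, and without CI28 replicate 4 or CT7 replicate 4, 2 were called higher. Of 12 heat shock genes, 1 rose (8.33%) and 2 fell (16.7%), against 15.6% and 15.8% of all genes, all with low counts. The fall of *HSA32* was lost without any library but CT7 replicate 4 (adjusted p = 0.06 to 0.12) and that of *HSFA7A* without CI28 replicate 4 (adjusted p = 0.052). *HSFA2* had 25.5, 35.4 and 2.86 normalized counts in wt CI28, against 0, 1.38, 1.82 and 3.52 in wt CT7 (log2 fold change 2.72, SE 0.88, adjusted p = 0.031), overlapping between the groups, and its call was lost without CI28 replicate 1 or 2 or CT7 replicate 1 or 2 (adjusted p = 0.055 to 0.17).

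Most immune genes were below the minimum, with 8 of 20 tested, 1 of which rose (2 without CT7 replicate 2 or 3) and 2 of which fell (1 without CI28 replicate 1 or 2). The shares of 12.5% and 25% stand against 15.6% and 15.8% of all genes. The thionin *THI2.1*, known from flowers and from jasmonate treatment, had 728, 631 and 102 normalized counts in wt CI28, against 0 in all 4 wt CT7 libraries (at least 96.0-fold higher, adjusted p = 3.0e-06). It passed only through CI28, so its direction was fixed by the filter. *PR5* had 6.80, 4.57 and 3.82 normalized counts in wt CI28, against 32.4, 30.3, 21.8 and 17.595 in wt CT7 (log2 fold change -2.12, SE 0.42, adjusted p = 0.0024). Of 15 seed storage and oil body genes 1 was tested and none called. Of 10 tested genes of reserve use 1 rose (10%, below the 15.6% of all genes), *MFP2* of fatty acid oxidation (log2 fold change 1.505, SE 0.20, adjusted p = 1.7e-04). Among 16 genes that are often used as references, 12 were not called, including *PP2AA3* at -0.07, *TIP41* at -0.04 and *EF1A* at 0.03 on the log2 scale. On this list 3 members fell (18.75%, near the 15.8% of all genes) and 1 rose (6.25%, against 15.6%). The list median was -0.05, and 0.83 with the same sum in every library. *ACT2*, an actin of vegetative tissue, had 6941, 5104 and 4848 normalized counts in wt CI28, against 27319, 17755, 17255 and 22724 in wt CT7 (log2 fold change -1.91, SE 0.23, adjusted p = 9.1e-05). *GAPC2* and *TUB6* fell by 1.29 and 1.25, calls that were lost with the same sum, and *TUB2* rose by 1.3004.

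The same pair of tissues was sequenced in mutants with other libraries, 4 and 3 for *poliv* (CI28 and CT7), a mutant in RNA polymerase IV of RNA-directed DNA methylation, and 4 and 4 for *ddm1*, which lacks a remodeller that keeps TEs methylated. Both carry the reporter. In *poliv*, 3029 genes rose in CI28 (17.3% of 17478) and 2523 fell (14.4%). In *ddm1*, 2750 rose (16.0% of 17202) and 2900 fell (16.9%). Of the wt genes that rose, 2025 of 2680 tested in *poliv* were also called higher there, 75.6% of them and 66.9% of the *poliv* rises, and 1769 of 2461 in *ddm1*, 71.9% and 64.3%. Of the wt genes that fell, 77.9% were called lower in *poliv* and 82.6% in *ddm1*, which is 81.3% and 76.2% of the falls there. *AP3* lay at 506 to 745 normalized counts in *poliv* CI28 and at 359 to 689 in *ddm1* CI28, against 0 to 1.04 and 0 in their CT7 libraries. On the photosynthesis list 51 genes fell in *poliv* and 50 in *ddm1*.

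Whether the tissue difference itself differed between genotypes was tested as an interaction. Against wt, 1 gene was called in *poliv* (0.00571% of 17516). In that test 1190 genes had an unadjusted p under 0.05, and edgeR on recovered reads called 1. The count was 9 without wt CT7 replicate 3, 5 without wt CI28 replicate 4, and 1 to 3 without any other library. The gene was AT5G35480, named after its values were seen, with means of 43.0 normalized counts in *poliv* CI28 and 549 in *poliv* CT7, against 10.5 in wt CI28 and 14.2 in wt CT7. In *ddm1*, 218 genes were called (1.25% of 17425), 39 (0.224%) with a difference more positive than in wt and 179 (1.03%) with one more negative, but edgeR on recovered reads called 27, and 125 were called without wt CI28 replicate 1. Where a called gene has no read in wt, such as AT1G25180, the interaction is its *ddm1* difference alone. Genes of pollen and its coat were among those with a more negative difference than in wt. *VGD1* had 21.2, 53.9 and 59.8 normalized counts in *ddm1* CI28 (lowest, median, highest of 4 libraries), against 1504 to 2557 in wt CI28, with 0 in the CT7 libraries of both. Its difference was smaller than in wt by 5.41 on the log2 scale (adjusted p = 1.7e-05). *sks13* had 51.8, 109 and 180.5 in *ddm1* CI28 (interaction -5.49, adjusted p = 2.2e-05). *STP9* had 6.64, 12.3 and 16.8 (interaction -4.54, adjusted p = 1.9e-04). These genes were named for large rises in wt, and the test reuses the same wt libraries, which favours smaller differences in *ddm1*. Floral organ identity genes gave no called interaction in either mutant, and no member of the anther and pollen wall list did. The developmental stage of the dissected tips is not given per library, and its part in these values was not tested. Of 1626 TEs tested between the tissues of *ddm1*, 672 rose in CI28 (41.3%) and 125 fell (7.69%). In the interaction test of 1371 TEs, 196 differed from wt in the positive direction (14.3%) and 36 in the negative (2.63%) by limma, but edgeR on recovered reads called 1. Only 189 TEs reached the minimum in wt, so most of the 1371 passed the filter through *ddm1*. Where wt is at 0 in both tissues, the interaction is the *ddm1* difference alone, as for AT3TE57935 (9.03 for both). These counts therefore cannot show whether the tissue difference of TEs depends on the genotype.

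**Figure D5:**
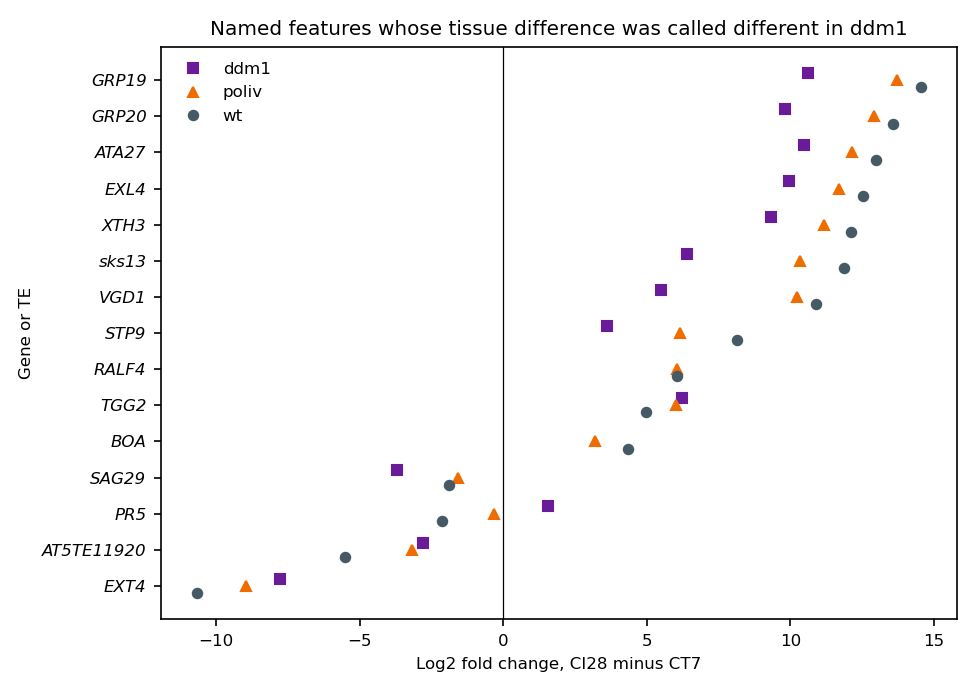
Log2 fold change, CI28 minus CT7, in *ddm1* (squares), *poliv* (triangles) and wt (circles) for the 15 named genes and TEs whose tissue difference was called different in *ddm1*. *RALF4* and *BOA* were too low for a test in *ddm1* and have no square. *VGD1* stands at 5.49 in *ddm1*, 10.24 in *poliv* and 10.90 in wt.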

How the data were processed

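RNA of wt CI28 and wt CT7, with the same tissues of *poliv* and *ddm1*, was sequenced by the authors as Smart-seq libraries. Per the labels and the study's methods, reads were extracted with bedtools 2.27, clipped and counted in a nextflow pipeline on TAIR10 annotations of genes and of TEs, leaving out TE genes. The aligner, the counter and the use of strand are not given in the sources used here. The deposited signal values are counts that the authors divided by DESeq2 size factors computed over all libraries of the series. In the 22 libraries used, 100% of values were whole multiples of 1 read within 0.1 of a read, so reads were recovered. Intervals and floors from them cover counting error only. The 52 columns of means and SDs were not used.

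Differences were tested with limma 3.58.1 (R 4.3.3) on log2 of the value plus 1, keeping features whose mean was 5 or more, and p-values were adjusted by Benjamini-Hochberg over genes, TEs and organelle genes. The interaction was fitted over 4 groups. Alternatives were edgeR 4.0.16 and DESeq2 1.42.0 on recovered reads (edgeR called 5587 genes), pseudocount 5, other minimums and scalings, a replicate block and each library left out. Shares were compared by exact permutation tests. A fold against a group at 0 was set against 3 reads per library. Named genes were the 12 largest called changes each way with a mean of at least 100, the floral organ identity list, up to 4 called members of other lists each way, *CLV3*, *WUS*, *AGO5*, *AGO9* and 3 TEs each way, other genes being named to complete a list or pathway. Names of 28929 loci came from a RefSeq table of TAIR10.1. Libraries, gene lists and tests were chosen with earlier results of these data known.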

Additional observations from a re-analysis of the deposited data

Results flagged for a closer look

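Among the 4 wt CT7 libraries, 1 library stood far from the other 3 for 10 of 112 genes, TEs and library measures compared. The limit flags about 1 in 20 groups of normally distributed values. Counts with a single library above 0, as for *VSP2* and *PI*, always exceed it, so the 10 cannot be set against that rate. CT7 replicate 1 was the highest for *SEN1* (11954 normalized counts, the others at 6199 to 6545), *ORE1* (104.5, others 40.0 to 41.8) and *COBL9* (10.8, others 0 to 1.38), and the lowest for AT4TE54820 (236, others 1424 to 1474). CT7 replicate 4 was the highest for *EARLI1* (2873, others 426 to 533), *LHY* (528, others 248 to 256) and *CYP77A6* (45.7, others 27.6 to 29.1). CT7 replicate 3 was the highest for *VSP2* (7.27, others 0) and the lowest for *WRKY53* (3.64, others 24.8 to 28.2), and CT7 replicate 2 held the only *PI* reads of the group (5.52 normalized counts).

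The tissue difference was called different in *ddm1* and wt for 15 of the named features, tested as an interaction in limma. These features were named for their differences in wt, and the test reuses the same wt libraries. That choice favours smaller differences in *ddm1*, so the list is a description only. It was more negative in *ddm1*, on the log2 scale of *ddm1* minus wt, for *sks13* (-5.49), *VGD1* (-5.41), *RALF4* (-5.05), *STP9* (-4.54), *GRP19* (-3.94), *GRP20* (-3.75), *BOA* (-3.67), *XTH3* (-2.78), *EXL4* (-2.58), *ATA27* (-2.49) and *SAG29* (-1.79). It was more positive for *PR5* (3.69), *EXT4* (2.89) and *TGG2* (1.23) and for AT5TE11920 (2.73).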

How the results depend on the processing

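With the same sum in every library, an alternative chosen after seeing the data, 8073 genes were called higher and 1310 lower, and 76 TEs higher. The count of TEs called higher was 10 with a minimum mean of 20 and 81 with no minimum, and that of TEs called lower was 21 with no minimum and 19 by DESeq2. The *poliv* interaction count was 10 with a pseudocount of 5, and the *ddm1* one was 345 with a pseudocount of 5 and 27 by edgeR. The cause was not tested.

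With 1 library left out, 2073 to 2864 genes were called higher in wt and 2520 to 2916 lower, 10 to 25 TEs higher and 10 to 16 lower. The ranges were 5138 to 5533 genes in *poliv*, 5241 to 5623 in *ddm1*, 1 to 9 for the *poliv* interaction (9 without wt CT7 replicate 3) and 125 to 299 for the *ddm1* interaction (125 without wt CI28 replicate 1). The TE share difference, CI28 minus CT7, was -0.00274 percentage points and lay between -0.0322 and 0.0217, turning positive without CI28 replicate 1 (0.00211), CT7 replicate 3 (0.0217) or CT7 replicate 4 (0.00652). The organelle share difference lay between 0.789 and 2.44 percentage points.

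Replicate numbers did not pair the samples, since the deviations of same-numbered libraries correlated at 0.10, 0.07 and -0.04 in wt. With the replicate block, 2802 genes were called higher in wt and 2941 lower, 19 TEs higher and 14 lower, 5105 genes in *poliv* and 5575 in *ddm1*, and the interaction counts were 6 for *poliv* and 158 for *ddm1*. In that fit 2 clock genes rose, and 5 touch and wound genes fell. Over 145 named features and up to 16 alternatives, 2200 of 2289 values kept their direction and call, 87 lost the call, 2 gained one and 0 changed direction. A call was lost by 24 features, by 11 with the same sum, by 6 in the block fit (*LHY*, *HSFA2*, *HSA32*, *COBL9*, *ELF3* and *THI2.2*) and by 16 with a library left out. Main gene calls were shared to between 72.8% (same sum) and 98.4% (no minimum), and none turned. A count of 0 allows up to 3 reads.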
